A study of Homo sapiens with 24 samples.

Results

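AQP3 and CD22 are 2 of the 59609 named genes in a table of raw 3′ RNA-seq counts from MDA-MB-231 cells and from MDA-MB-453 cells, both established from breast cancers. They were chosen by their log2 fold changes between abemaciclib and DMSO in MDA-MB-231, which were among the largest increases, so their levels in those DMSO and abemaciclib libraries are described here without a test. Both lines are oestrogen receptor (ER)-negative and labelled Wild-type, and MDA-MB-231 is mesenchymal. For 5 days, cells received DMSO, 500 nM abemaciclib, 5 nM fulvestrant, or both drugs together (the combination). MDA-MB-231 was grown in RPMI-1640 medium and MDA-MB-453 in DMEM, so line and medium cannot be told apart. There were 3 libraries in each of the 8 groups, from an experiment performed once with 3 biological replicates. P-values therefore measure the spread between cultures of that single experiment. AQP3 passed the filter on low counts in both lines, whereas CD22 passed it only in MDA-MB-231, since none of the 12 libraries of MDA-MB-453 held a CD22 count (0 counts).

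Abemaciclib inhibits the kinases CDK4 and CDK6, which keeps the Rb protein active and halts cells before DNA replication. Fulvestrant degrades ER. AQP3 encodes an aquaglyceroporin, a membrane channel that lets water and glycerol through, and it is best known from the kidney collecting duct and the epidermis. CD22 encodes a receptor of the Siglec family, which bind sialic acid on glycoproteins and glycolipids. On B cells it dampens signalling from the antigen receptor through phosphatases that dock on its cytoplasmic tail, and it is the target of antibody drugs against B cell malignancies.

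AQP3 (ENSG00000165272.16) is a protein-coding gene on the minus strand at chr9:33441156-33447596, and CD22 (ENSG00000012124.17) is a protein-coding gene on the plus strand at chr19:35319261-35347361 (GRCh38, GENCODE 44). No other annotated exon overlapped an exon of AQP3. CD22 exons shared 15 bases with an unnamed long non-coding RNA on the same strand and 26 bases with the microRNA gene MIR5196, which had 0 counts. The promoters are shown because the members were high in the same libraries of MDA-MB-231, and they differ in base composition and in the motifs matched. Each runs from 250 bases before the RefSeq transcription start to 50 bases after it (GRCh38.p14), at chr9:33447544-33447843 on the minus strand for AQP3 and at chr19:35328937-35329236 on the plus strand for CD22. Capitals mark matches on either strand to the GC box (GGGCGG), the TATA box (TATAAA) or the CCAAT box (CCAAT).
AQP3 promoter: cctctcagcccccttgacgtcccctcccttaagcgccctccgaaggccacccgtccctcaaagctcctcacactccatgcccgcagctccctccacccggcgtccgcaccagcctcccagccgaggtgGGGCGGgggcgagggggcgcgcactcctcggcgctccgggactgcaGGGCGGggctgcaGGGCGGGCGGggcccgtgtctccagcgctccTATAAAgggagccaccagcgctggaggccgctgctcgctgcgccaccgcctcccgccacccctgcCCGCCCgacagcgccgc
CD22 promoter: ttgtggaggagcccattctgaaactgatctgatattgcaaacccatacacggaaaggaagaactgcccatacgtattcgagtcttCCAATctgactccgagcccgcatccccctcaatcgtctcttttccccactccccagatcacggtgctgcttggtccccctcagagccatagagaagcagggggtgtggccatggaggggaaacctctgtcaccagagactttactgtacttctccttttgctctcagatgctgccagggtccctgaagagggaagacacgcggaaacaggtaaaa
The AQP3 promoter held 75.3% G and C, more than 91.4% of the 27305 promoters of that length, and 31 CpG dinucleotides. It contained 5 GC boxes, some of them overlapping, and a TATA box beginning at position −32 from the start. The CD22 promoter held 53.0% G and C, more than 37.6% of promoters, and 9 CpG dinucleotides. Its only match was a CCAAT box beginning at position −165, and its RefSeq start lay inside the longer gene span given by GENCODE. Over all promoters the medians were 58.3% G and C and 14 CpG dinucleotides. A GC box was found in 44.6% of promoters, a TATA box in 12.0% and a CCAAT box in 35.7%. Neither window contained an E2F site written as TTTCCCGC, TTTCGCGC, TTTGCCGC or TTTGGCGC (3.33% of promoters), the cell cycle homology region TTTGAA (15.4%), the palindromic oestrogen response element (0.0659%) or the AP-1 site TGANTCA (7.76%), searched on both strands.

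The 24 libraries held 2873558 to 4158762 counts each. Levels are given as counts scaled to 1000000 counts per library (CPM). For a group of 3 libraries with 0 counts the floor was set at 3 counts over the group, or 0.255 to 0.300 CPM. VIM, a mesenchymal filament gene, had 0 counts in MDA-MB-453, and ESR1, which encodes ER, was near 0 in both lines, with 8 counts over the 12 libraries of each. The proliferation marker MKI67 fell under abemaciclib in MDA-MB-231 from 516 ± 27.2 to 189 ± 15.6 CPM, and in MDA-MB-453 from 276 ± 18.2 to 1.63 ± 0.743 CPM (SD, n = 3). The share of counts from mitochondrial genes moved the other way, in MDA-MB-231 from 8.83% ± 0.213 to 12.2% ± 1.05, and in MDA-MB-453 from 15.2% ± 0.650 to 23.8% ± 1.91 (SD, n = 3).

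In MDA-MB-231, AQP3 was close to absent in DMSO and readily counted under abemaciclib. The DMSO libraries held 4.27, 1.46 and 1.82 CPM (14, 5 and 6 counts). The abemaciclib libraries held 62.7, 77.8 and 87.7 CPM (221, 256 and 320 counts). Every abemaciclib library lay far above every DMSO library. The means were 2.52 ± 1.53 and 76.1 ± 12.6 CPM (SD, n = 3), a ratio of 30.2, and the fitted log2 fold change was 4.91 (SE 0.25). These are the values that chose the gene. With so few DMSO counts, pooling the DMSO libraries gave 2.50 CPM with an exact 95% Poisson interval of 1.62 to 3.69, which covers counting error only. The fold rests in part on DMSO replicate 1, without which the log2 fold change was 5.51.

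CD22 showed a similar contrast at lower levels. The DMSO libraries held 1.83, 0 and 3.03 CPM (6, 0 and 10 counts). The abemaciclib libraries held 40.3, 43.4 and 31.8 CPM (142, 143 and 116 counts). All abemaciclib libraries were again well above all DMSO libraries, of which replicate 2 had no count. The means were 1.62 ± 1.53 and 38.5 ± 6.04 CPM (SD, n = 3), a ratio of 23.8, and the fitted log2 fold change was 4.56 (SE 0.37), likewise the values that chose the gene. The pooled DMSO level was 1.60 CPM with an exact 95% Poisson interval of 0.914 to 2.60. Without DMSO replicate 2 the log2 fold change was 3.97, and without DMSO replicate 3 it was 5.38.

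Ordered by this log2 fold change among genes called higher under abemaciclib in MDA-MB-231 (16.9% of the 11314 genes tested) that averaged at least 10 CPM, AQP3 stood at the top and CD22 at place 3 of 1473. ITGB4, an integrin subunit, lay between them at 4.70. The next gene below CD22 was AGR2, which encodes an endoplasmic reticulum protein of secretory epithelia, at 4.46 (SE 0.39) and 15.3 CPM. Without the floor on the mean level, AQP3 and CD22 held places 10 and 15 of 1908.

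**Figure D1:**
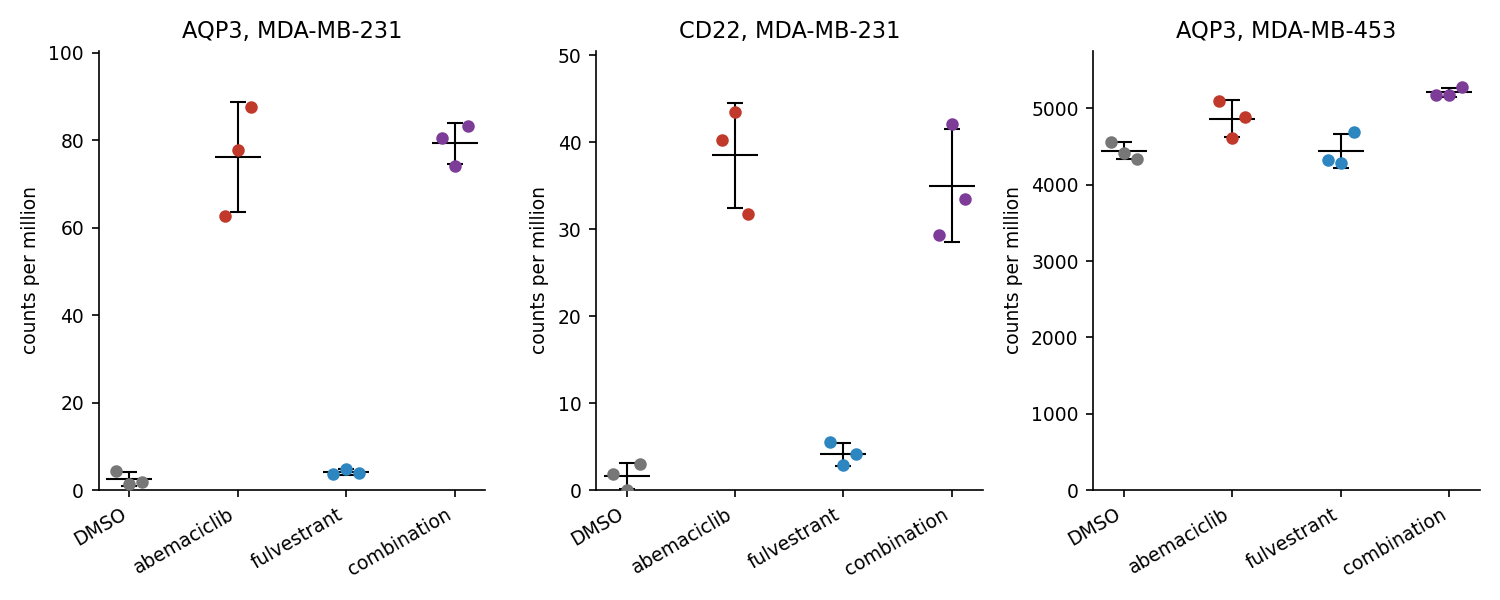
Level of AQP3 and CD22 in CPM (linear vertical axes from 0, with a separate scale for each panel) in each library of the 4 treatments, for both genes in MDA-MB-231 and for AQP3 in MDA-MB-453; points are libraries, and black marks and bars are the mean and SD of 3 libraries. In MDA-MB-231 AQP3 lay at 62.7 CPM or above with abemaciclib and at 4.83 CPM or below without it, whereas in MDA-MB-453 its lowest library stood at 4292 CPM.

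The fulvestrant and combination libraries of MDA-MB-231 were not used to choose the genes and give a second comparison without and with abemaciclib. Both genes were higher in the combination. AQP3 stood at 3.75, 4.83 and 3.80 CPM in the fulvestrant libraries (13, 17 and 13 counts). It stood at 80.6, 74.1 and 83.3 CPM in the combination libraries (299, 308 and 323 counts). The groups did not overlap. The means were 4.13 ± 0.609 and 79.3 ± 4.73 CPM (SD, n = 3), a ratio of 19.2. On the log2 scale the AQP3 change was 4.24 (SE 0.23; adjusted p = 9.1e-19 in the edgeR quasi-likelihood test).

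CD22 stood at 5.49, 2.84 and 4.09 CPM in the fulvestrant libraries of MDA-MB-231 (19, 10 and 14 counts). It stood at 29.4, 42.1 and 33.5 CPM in the combination libraries (109, 175 and 130 counts). The groups did not overlap here either, and the combination libraries differed more among themselves than those of AQP3. The means were 4.14 ± 1.32 and 35.0 ± 6.48 CPM (SD, n = 3), a ratio of 8.45. On the log2 scale the CD22 change was 3.06 (SE 0.31, edgeR adjusted p = 9.5e-11). The 2 members were called higher, as were 17.6% of all genes tested. Both were chosen by the response to the same drug in the same line and experiment, so this count adds no independent support. By log2 fold change, AQP3 and CD22 were at ranks 18 and 60 of the 11314 genes in this comparison.

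In this comparison of MDA-MB-231 the mitochondrial share rose from 9.01% ± 0.261 to 13.7% ± 0.319 (SD, n = 3). With mitochondrial genes left out of the counts, the log2 fold changes were 4.26 for AQP3 and 3.08 for CD22, as large as with them. In bulk RNA, a change in the number of cells that express a gene and a change in the RNA of that gene per cell cannot be told apart.

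Fulvestrant alone and the addition of fulvestrant to abemaciclib went with much smaller differences. AQP3 and CD22 levels in fulvestrant overlapped those in DMSO, with log2 fold changes of 0.72 (SE 0.38) and 1.36 (SE 0.49). These values rest on few counts and range from 0.45 to 1.32 for AQP3 and from 0.77 to 2.17 for CD22 when single libraries were left out. AQP3 and CD22 in the combination also overlapped abemaciclib alone, at log2 fold changes of 0.05 (SE 0.16) and −0.14 (SE 0.24). Against DMSO, the combination gave 4.96 (SE 0.25) for AQP3 and 4.42 (SE 0.37) for CD22. Without DMSO replicate 1 the AQP3 value was 5.56, and the CD22 value was 3.83 without DMSO replicate 2 and 5.25 without DMSO replicate 3. The abemaciclib difference was smaller on the log2 scale with fulvestrant than without it, by −0.67 (SE 0.41) for AQP3 and −1.50 (SE 0.55) for CD22. All of these contrasts share the DMSO or abemaciclib libraries that chose the genes, so no p-value is given.

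**Figure D2:**
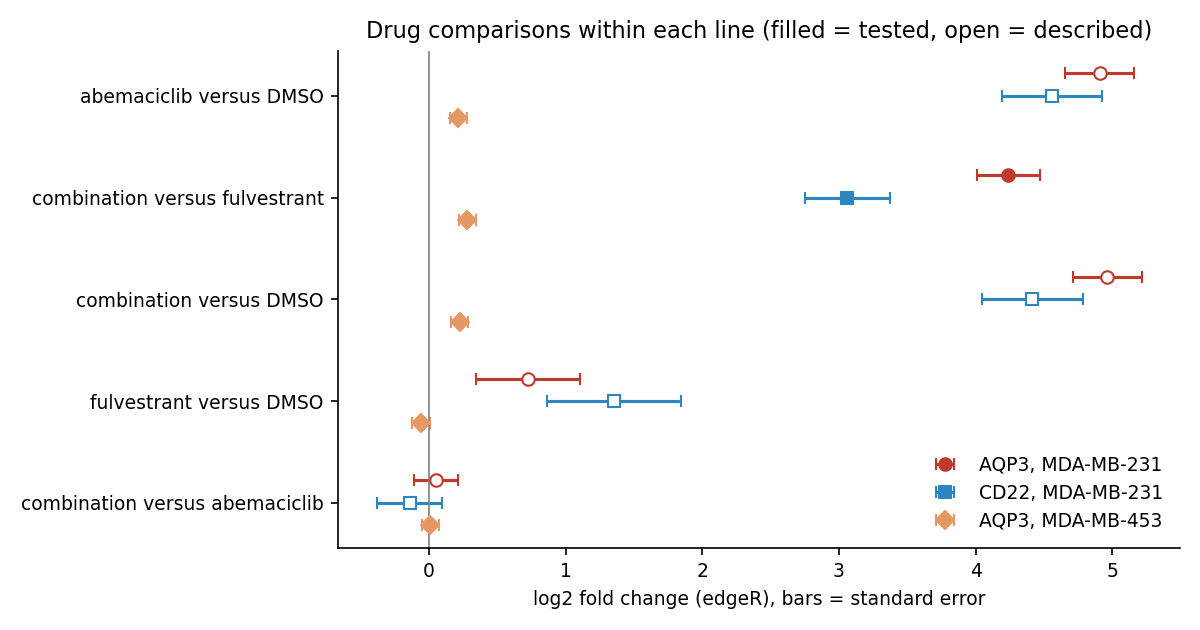
Log2 fold changes (horizontal axis) of AQP3 and CD22 in each comparison within a line; filled points were tested, open points are described only because they share libraries with the choice of genes, and bars are standard errors. The comparisons with and without abemaciclib lie between 3.06 and 4.96 for MDA-MB-231, and for AQP3 in MDA-MB-453 between 0.21 and 0.28.

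In MDA-MB-453, AQP3 was already abundant without abemaciclib, and it was slightly higher with it. The DMSO libraries held 4563, 4423 and 4344 CPM (15615, 16160 and 15684 counts). The abemaciclib libraries held 5099, 4616 and 4886 CPM (20153, 16868 and 16255 counts). The groups did not overlap, although the lowest abemaciclib library was close to the highest DMSO library. The means were 4443 ± 111 and 4867 ± 242 CPM (SD, n = 3), a ratio of 1.10. In a comparison where 16.6% of genes were called higher, the fitted log2 fold change was 0.21 (SE 0.06, edgeR adjusted p = 0.0065). The fit scales by TMM factors, unlike the CPM ratio. The small AQP3 difference depended on this scaling. With library totals alone, without the TMM factors of edgeR, it was 0.13 with an adjusted p of 0.11 in edgeR.

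The larger difference in MDA-MB-453 was between fulvestrant and the combination. The fulvestrant libraries held 4331, 4292 and 4695 CPM of AQP3 (16092, 16338 and 15609 counts). The combination libraries held 5178, 5174 and 5277 CPM (14879, 17861 and 20666 counts). In CPM the combination libraries lay within a narrow range above all others in the study. With TMM scaling this lead over abemaciclib alone was not seen, at a fitted log2 fold change of 0.01 (SE 0.06). The means were 4439 ± 222 and 5210 ± 58.6 CPM (SD, n = 3), a ratio of 1.17. The log2 fold change fitted with TMM scaling was 0.28 (SE 0.06, edgeR adjusted p = 0.00042), against 17.2% of genes called higher. With library totals alone it was 0.23 with an adjusted p of 0.0033 in edgeR.

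The mitochondrial share in MDA-MB-453 rose from 14.3% ± 0.872 in fulvestrant to 21.2% ± 0.381 in the combination (SD, n = 3), and AQP3 differed by 0.28 on the log2 scale without those genes as well. The combination was also above DMSO, by 0.22 on the log2 scale for AQP3 (SE 0.06, edgeR adjusted p = 0.0045), where 17.6% of genes were called higher. Fulvestrant against DMSO moved AQP3 by −0.06 (SE 0.06, edgeR adjusted p = 0.77), with a 95% interval of −0.18 to 0.07. The combination against abemaciclib gave 0.01 (SE 0.06, adjusted p = 0.97, edgeR), with an interval of −0.12 to 0.13. For AQP3 the interaction of the drugs was 0.07 (SE 0.09, adjusted p = 0.80, edgeR), with an interval of −0.11 to 0.24. Genes called in either direction made up 1.41%, 2.46% and 3.8% of those tested in these 3 comparisons, and AQP3 was in none of them.

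AQP3 thus differed between the lines in level and in the size of its response. By mean CPM, the order in MDA-MB-231 from the lowest was DMSO, fulvestrant, abemaciclib and combination. All MDA-MB-453 groups lay above these, in the order fulvestrant, DMSO, abemaciclib and combination. Neighbours that overlapped in CPM were DMSO and fulvestrant in each line and abemaciclib and the combination in MDA-MB-231. The ratio of MDA-MB-453 to MDA-MB-231 was 1767 in DMSO and 1075 in fulvestrant, and 64.0 in abemaciclib and 65.7 in the combination. The abemaciclib-treated MDA-MB-231 libraries stayed below all MDA-MB-453 libraries. Under fulvestrant the log2 difference in AQP3 between the lines was 10.05 (SE 0.14, adjusted p = 2.2e-45, edgeR on all 24 libraries), where 33.7% of the 12750 genes tested were higher in MDA-MB-453. The difference under DMSO was 10.84 (SE 0.15), without a test. The log2 fold change of AQP3 between combination and fulvestrant was lower in MDA-MB-453 than in MDA-MB-231 by 3.96 (−3.96, SE 0.18, adjusted p = 9.3e-23, edgeR). In that direction 11.3% of genes were called. Since AQP3 was chosen for its large response in MDA-MB-231, the choice itself favours a smaller response in the other line.

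CD22 was absent at this depth from MDA-MB-453, with 0 counts in every treatment against 16, 43, 401 and 414 counts in the DMSO, fulvestrant, abemaciclib and combination libraries of MDA-MB-231. Set against 3 counts over a group, CD22 in MDA-MB-453 was at least 5.70-fold lower in DMSO, 14.9-fold lower in fulvestrant, 140-fold lower in abemaciclib and 120-fold lower in the combination. The difference under fulvestrant had an adjusted p of 7.1e-07 (edgeR on all 24 libraries), where 34.8% of genes were lower in MDA-MB-453. Without fulvestrant replicate 2 of MDA-MB-453 that bound was 9.70. Without DMSO replicate 3 of MDA-MB-231 the bound in DMSO was 3.19, and without replicate 2 it was 8.66. Within MDA-MB-231 the order from lowest mean was DMSO, fulvestrant, combination and abemaciclib, with overlap between DMSO and fulvestrant and between the combination and abemaciclib. Whether the CD22 response differed between the lines could not be tested, because both MDA-MB-453 groups were at 0.

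AQP3 was the only aquaporin counted in quantity in either line. None of the 13 other aquaporin genes passed the filter in MDA-MB-231, where 3 had any count, and 4 had any count in the other line. AQP11, an intracellular aquaporin, had 28 and 120 counts over the 12 libraries of each line, AQP1, a water channel, had 11 and 5, and AQP7, another glycerol channel, had 0 and 24. AQP11 was tested in MDA-MB-453, at log2 fold changes of 0.24 between combination and fulvestrant (adjusted p = 0.80, edgeR) and 0.50 between abemaciclib and DMSO (adjusted p = 0.61, edgeR).

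The enzymes that make or use glycerol did not move one way with AQP3. Of 18 genes of glycerol and acylglycerol metabolism, 14 were tested in MDA-MB-231 between combination and fulvestrant. In that comparison 5 were higher and 3 lower, with a median log2 fold change of 0.22 against −0.00 over all genes, where 36.1% were called in either direction. In MDA-MB-453 15 were tested, 3 were higher and 3 lower, and the median was 0.07 against 0.01, where 36.6% of genes were called. Between abemaciclib and DMSO in MDA-MB-453, 2 of 15 were higher and 6 lower, with a median of −0.13, where 36% of genes were called in either direction.

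Of these genes, LPIN3 and LPIN1 encode phosphatidate phosphatases, which make diacylglycerol. Between fulvestrant and the combination LPIN3 rose in both lines, by 2.67 on the log2 scale in MDA-MB-231 (edgeR adjusted p = 0.00015) and 2.12 in the other line (6.3e-05). Between abemaciclib and DMSO in MDA-MB-453, however, LPIN3 was at −0.77 (adjusted p = 0.19, edgeR). LPIN1 rose by 1.51 and 0.85 in the same comparison of combination with fulvestrant. GPD2, the mitochondrial glycerol 3-phosphate dehydrogenase, fell in both lines, at −1.11 and −1.34. DGAT2, which makes triacylglycerol, fell in MDA-MB-453, at −1.46, and was at −0.03 in MDA-MB-231 (adjusted p = 0.97, edgeR).

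AQP3 is a gene of stratified epithelium, and 16 genes of that tissue were therefore counted. Few were measured. Between combination and fulvestrant, 3 were tested in MDA-MB-231 (0 higher, 2 lower, median −0.31) and 5 in MDA-MB-453 (1 higher, 1 lower, median −0.06). Over all genes 17.6% were called higher and 36.1% in either direction in the first line, and 17.2% and 36.6% in the other, so with so few genes tested these counts do not set the list apart. SFN, which encodes 14-3-3 sigma, fell in both lines, at −0.31 and −0.70. The suprabasal keratin gene KRT10 fell in MDA-MB-231, at −0.56, and rose in MDA-MB-453, at 0.62, where it was at 0.27 between abemaciclib and DMSO (adjusted p = 0.29, edgeR).

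CD22 was the only Siglec gene tested in MDA-MB-231, and SIGLEC15 was the only Siglec gene tested in MDA-MB-453. Of the 13 other family members, CD33, a myeloid Siglec, had 10 counts in MDA-MB-231 but 0 in the other line, SIGLEC15 had 5 counts in MDA-MB-231, and all the rest had 0 counts in both lines. SIGLEC15, known from osteoclasts and macrophages, stood at 18.4, 17.5 and 15.0 CPM in the DMSO libraries of MDA-MB-453. It stood at 60.2, 61.0 and 73.3 CPM in the abemaciclib libraries. SIGLEC15 was higher in all abemaciclib libraries than in any DMSO library, by 2.02 on the log2 scale (SE 0.17, edgeR adjusted p = 1.2e-13).

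In fulvestrant SIGLEC15 stood at 18.0, 25.0 and 19.2 CPM, and in the combination at 78.0, 75.9 and 78.7 CPM. These groups did not overlap either, and the SIGLEC15 change was 1.95 on the log2 scale (SE 0.16, edgeR adjusted p = 1.2e-13).

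**Figure D3:**
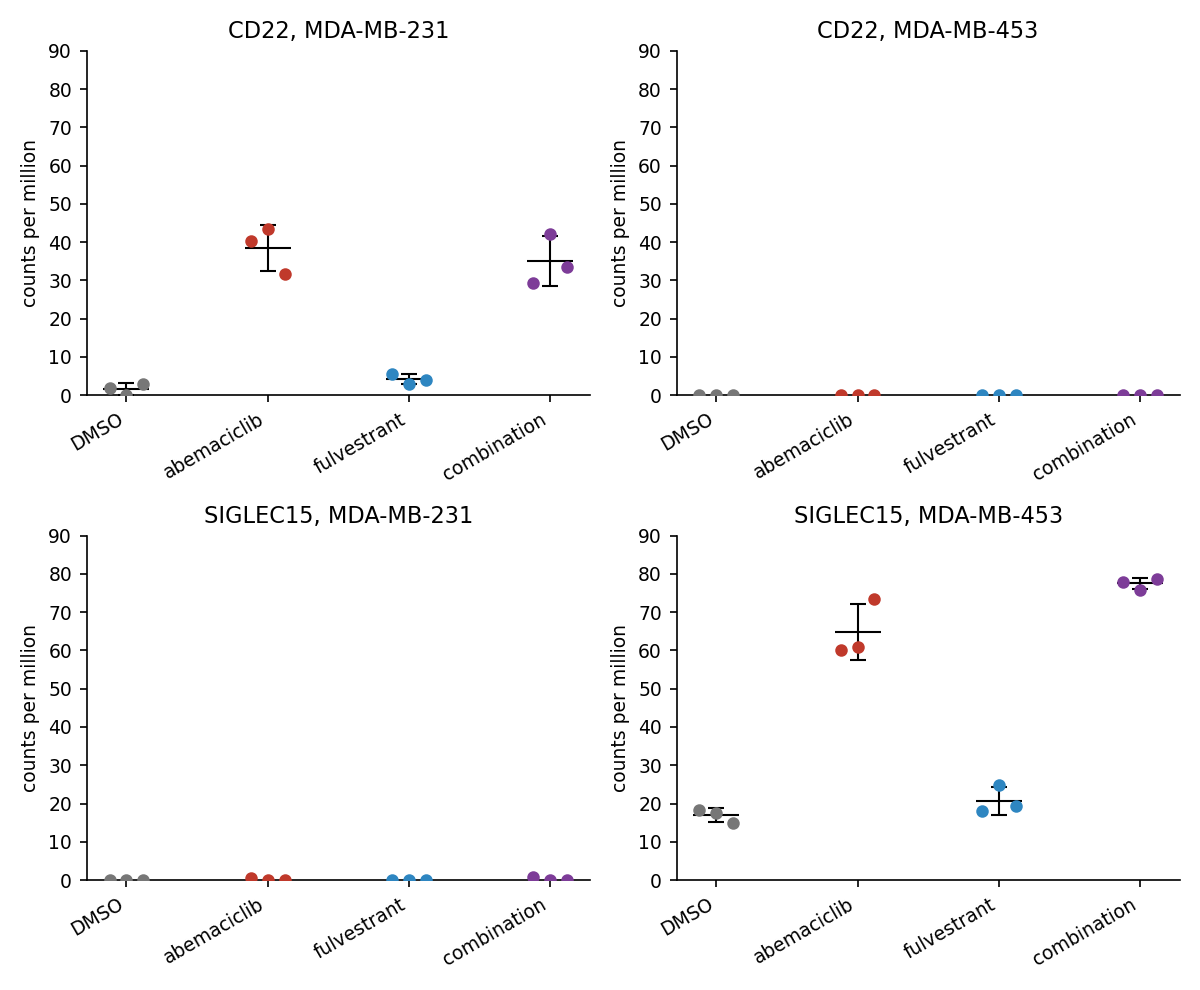
Level of CD22 and SIGLEC15 in CPM (linear vertical axes from 0, with a shared scale in all panels) in each library of both lines; points are libraries, and black marks and bars are the mean and SD of 3 libraries in groups with a library above 1 CPM. CD22 lay between 29.4 and 43.4 CPM with abemaciclib in MDA-MB-231 and was at 0 in MDA-MB-453, whereas SIGLEC15 lay between 60.2 and 78.7 CPM with abemaciclib in MDA-MB-453 and below 1 CPM in MDA-MB-231.

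CD22 binds sialic acid, and the genes that make, attach or remove it were counted in the comparison of combination with fulvestrant. Of 25 such genes, 16 were tested in MDA-MB-231 (2 higher, 2 lower, median 0.23) and 11 in MDA-MB-453 (1 higher, 4 lower, median −0.24), against 36.1% and 36.6% of all genes called in either direction. Between abemaciclib and DMSO in MDA-MB-453, 1 of 11 was higher and 4 were lower, with a median of −0.38, against 36% of all genes called. NEU1, the lysosomal sialidase, rose in both lines between fulvestrant and the combination, by 1.05 (adjusted p = 0.00014, edgeR) and 0.89 (adjusted p = 5.1e-08).

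The sialyltransferase gene ST3GAL6 fell in both lines, at −1.22 and −1.79, and was at −0.63 between abemaciclib and DMSO in MDA-MB-453 (adjusted p = 0.50, edgeR). ST3GAL4 fell in MDA-MB-453, at −2.49, and was at −0.79 in MDA-MB-231 (adjusted p = 0.066, edgeR). ST3GAL1 rose by 0.69 in MDA-MB-231 and was at −0.24 in MDA-MB-453 (adjusted p = 0.44, edgeR). ST6GAL1, named here after its values were seen, makes the sialic acid linkage that CD22 prefers. It had 58 counts over the MDA-MB-231 libraries and was not tested there, and it was at 0.16 in MDA-MB-453 (adjusted p = 0.55, edgeR).

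Genes that act next to CD22 in B cells were measured in part. Of 12, 7 were tested between combination and fulvestrant in MDA-MB-231 (1 higher, 0 lower, median 0.30) and 6 in MDA-MB-453 (2 higher, 1 lower, median 0.10). Over all genes 17.6% and 17.2% were called higher, and 36.1% and 36.6% in either direction. Between abemaciclib and DMSO in MDA-MB-453, 2 of 6 were higher and 0 lower, with a median of 0.39, against 16.6% of genes called higher and 36% in either direction. The adaptor gene SHC1 rose in both lines between fulvestrant and the combination, by 0.54 and 0.43, and was at 0.39 between abemaciclib and DMSO in MDA-MB-453 (adjusted p = 0.072, edgeR). LYN, the kinase that phosphorylates the CD22 tail, was present in MDA-MB-231 at a log2 fold change of 0.10 (adjusted p = 0.74, edgeR). PTPN6, the phosphatase recruited by CD22, was too low to be tested in MDA-MB-231, but in MDA-MB-453, where CD22 was at 0, it rose by 0.95. The adaptor gene GRB2 fell by 0.23 in MDA-MB-453 and was at −0.13 there between abemaciclib and DMSO (adjusted p = 0.22, edgeR), and the kinase gene SYK had 0 counts in both lines.

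CD22 is a B cell gene, and most defining B cell markers were at 0 where it was high. Among the B cell markers, MS4A1, CD79B, FCER2, FCRL1 and POU2AF1 had 0 counts in all 24 libraries. The summed count of the list in MDA-MB-231 was 18 to 19 per library in DMSO, 15 to 28 in abemaciclib, 2 to 12 in fulvestrant and 18 to 31 in the combination. DMSO and abemaciclib thus overlapped in this sum, whereas fulvestrant and the combination did not. BANK1, a B cell adaptor gene, was the only marker tested, and it rose between fulvestrant and the combination in both lines, by 1.89 in MDA-MB-231 (edgeR adjusted p = 0.017) and 3.77 in the other (2.7e-05). BANK1 in MDA-MB-231 stood at 3.47, 0.284 and 0.292 CPM in fulvestrant (12, 1 and 1 counts) and at 6.20, 4.81 and 4.38 CPM in the combination. Its DMSO libraries (3.96, 4.67 and 3.94 CPM) overlapped its abemaciclib libraries (7.66, 3.65 and 4.38 CPM). The difference in this line was thus between fulvestrant, low in replicates 2 and 3, and the combination. In MDA-MB-453, BANK1 was also higher in abemaciclib than in DMSO, by 2.71 on the log2 scale (edgeR adjusted p = 0.0049). Counts there were few, with 2, 3 and 0 in DMSO and 15, 12 and 7 in abemaciclib. Fulvestrant had 1, 4 and 1 counts and the combination 14, 36 and 30. The 8 leukocyte markers summed to 0 to 2 counts per MDA-MB-231 library and 0 to 3 per MDA-MB-453 library. The part of these few marker counts in the CD22 result was not tested.

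Few of the genes next to AQP3 and CD22 on the chromosomes were tested. The 5 genes on each side of each member were taken in the comparison of combination with fulvestrant. Around AQP3, 4 of 10 were tested in MDA-MB-231, with log2 fold changes from −0.43 to 0.24, and 0 were called higher, against 17.6% of all genes. NOL6, a ribosome biogenesis gene 13.8 kb away, fell, at −0.43 (adjusted p = 0.022, edgeR). In MDA-MB-453 NFX1 and CHMP5 rose by 0.55 (adjusted p = 0.0022, edgeR) and 0.52 (adjusted p = 0.00017). AQP7, 38.5 kb from AQP3, was at 0 counts in MDA-MB-231.

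Around CD22, 2 of 10 genes had any count. USF2, a transcription factor gene 39.4 kb away, fell in MDA-MB-231, at −0.43 (adjusted p = 0.0038, edgeR), and was at −0.19 in MDA-MB-453 (adjusted p = 0.12). LSR, a lipoprotein receptor gene 51.3 kb away, was at −0.17 in MDA-MB-231 (adjusted p = 0.40, edgeR) and rose by 0.51 in MDA-MB-453 (adjusted p = 0.00013). MAG, a Siglec gene 5.45 kb from CD22, and FFAR1, 0.541 kb from it, had 0 counts in both lines.

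**Figure D4:**
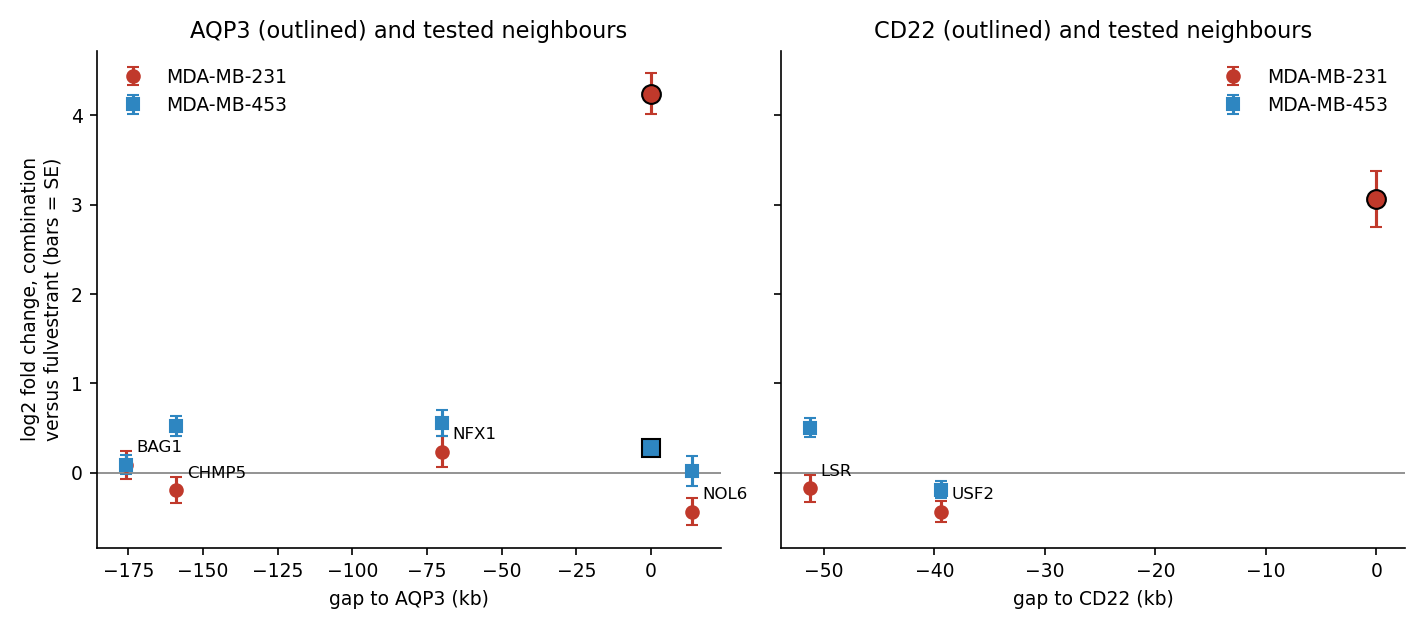
Log2 fold change between combination and fulvestrant (vertical axis) of AQP3, CD22 and their tested neighbours against the gap between the genes in kb (horizontal axis); colours are the lines and bars are standard errors. In MDA-MB-231 AQP3 (4.24) and CD22 (3.06), chosen for large changes in this line, lie above their neighbours, which lie between −0.43 and 0.24.

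The genes whose log2 CPM followed the members most closely over the 12 MDA-MB-231 libraries were listed as a description, since these libraries include those that chose the members. For AQP3 they were HLA-E (Pearson r = 0.993), SERPINB1 (0.993), GBP1 (0.992), RETSAT (0.988) and MFGE8 (0.987). HLA-E encodes a non-classical major histocompatibility molecule, SERPINB1 an inhibitor of serine proteases, GBP1 an interferon-inducible GTPase, RETSAT a retinol saturase and MFGE8 a secreted protein that binds phosphatidylserine. For CD22 they were VSTM2L (0.979), NPTXR (0.979), REEP6 (0.976), RETSAT (0.972) and TK2 (0.970). NPTXR encodes a receptor for neuronal pentraxins, REEP6 a protein of the endoplasmic reticulum and TK2 the mitochondrial thymidine kinase. RETSAT was in both lists.

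AQP3 and CD22 followed each other at r = 0.944, and 557 genes followed AQP3 and 202 genes followed CD22 at 0.9 or more, so a high r was common among these libraries, which share treatment. The changes of the listed genes were smaller than those of the members, which were chosen for large changes in this line. Between fulvestrant and the combination in MDA-MB-231 they ranged on the log2 scale from 0.85 for NPTXR to 2.24 for VSTM2L, against 4.24 for AQP3 and 3.06 for CD22. In MDA-MB-453 RETSAT rose by 0.59 (adjusted p = 1.1e-05, edgeR), whereas HLA-E was at −0.53 (adjusted p = 0.068) and SERPINB1 at −0.34 (adjusted p = 0.13). GBP1 and VSTM2L had 0 counts in MDA-MB-453. Over all 24 libraries the r between AQP3 and CD22 was −0.57, and AQP3 was highest in the line where CD22 was at 0.

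**Figure D5:**
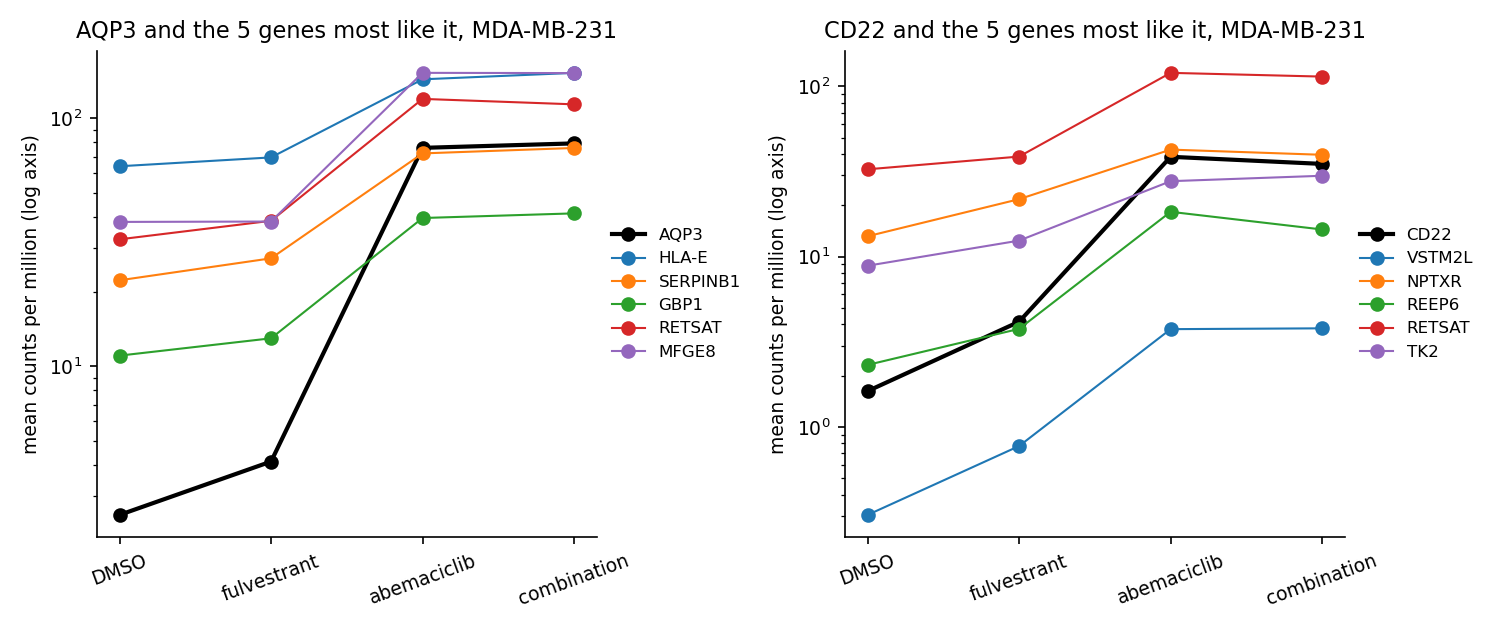
Mean level in CPM (vertical axes on a log scale) of AQP3 and CD22, each with the 5 genes most like it, in the 4 treatments of MDA-MB-231; points are means of 3 libraries. All lines are higher with abemaciclib. AQP3 (2.52 to 76.1 CPM), chosen for its large change, climbs more steeply than RETSAT (32.5 to 120 CPM), which is in both lists.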

How the data were processed

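Gene expression was measured by QuantSeq forward 3′ RNA-seq in 24 libraries of 2 cell lines. The deposited values are raw read counts per gene. Per the methods of the authors, BBDuk was used for trimming, STAR for alignment to hg38 and featureCounts for counting over GENCODE 35. The strand setting and the treatment of multi-mapping and duplicate reads are not given in the sources used here. A 3′ library counts transcript ends, so counts do not grow with gene length, and no level was compared between genes as a test.

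AQP3, CD22 and all gene lists were chosen with earlier results of these data known. Counts were fitted with the quasi-likelihood test of edgeR 4.0.16 (TMM, filterByExpr, 2-sided) in R 4.3.3, on the 12 libraries of a line or on all 24 for comparisons between lines. P-values were adjusted by the Benjamini-Hochberg method over 11314 genes in MDA-MB-231, 11080 in MDA-MB-453 and 12750 in both, with a threshold of 0.05. A fold against 0 counts was set against 3 counts over the group. Contrasts that share the DMSO or abemaciclib libraries of MDA-MB-231 have no p-value. For CD22 between the lines, only the difference under fulvestrant has a p-value, and no fitted log2 fold change is given. The table has 1 further row without a gene name, with 0 counts. Replicates of a group differed by more than sampling noise, with a chi-square per degree of freedom from 2.64 to 8.65.

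The named genes were the members, the 5 genes with the highest r of log2 CPM (prior count of 2) with each, up to 4 called genes of each list with the largest changes, the 5 neighbours on each side, the marker genes and the gene next below the members in the ordering. Other genes are named where they are at 0 counts or describe a list, and 1 marker gene is not reported here. Alternatives were DESeq2 1.42.0, other size factors, no filter, another prior count, fits of the compared groups alone, omission of mitochondrial genes, a replicate block and omission of single libraries. Scaling by library totals alone was added after the data were seen. The test was checked on simulated data.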

Additional observations from a re-analysis of the deposited data

Results flagged for a closer look

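The difference between the lines in the AQP3 response was singled out because it was tested directly. Its direction is favoured by the choice of AQP3, which was made for a large response in MDA-MB-231. The log2 fold change between combination and fulvestrant was smaller in MDA-MB-453 than in MDA-MB-231, by −3.96 (SE 0.18, adjusted p = 9.3e-23, edgeR on all 24 libraries). AQP3 rose in both lines, in MDA-MB-231 from 4.13 to 79.3 CPM, and in MDA-MB-453 from 4439 to 5210 CPM. In CPM, the rise in MDA-MB-453 was the larger. The value stayed between −4.08 and −3.87 when single libraries were left out.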

How the results depend on the processing

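In MDA-MB-231, AQP3 and CD22 remained called higher in the combination than in fulvestrant under every alternative, at 4.16 to 4.37 and 2.85 to 3.31. The values against DMSO rest on few counts. Without DMSO replicate 1, AQP3 was at 5.51 for abemaciclib, 5.56 for the combination, 1.32 for fulvestrant, −1.27 for the interaction and 11.44 for the difference between lines, and the lowest values without single libraries were 4.63, 4.69, 0.45, −0.40 (nearest 0) and 10.56. The CD22 interaction ranged from −2.30 without DMSO replicate 3 to −0.91 without replicate 2. AQP3 between abemaciclib and DMSO in MDA-MB-453 was 0.19 to 0.24 without single libraries (adjusted p up to 0.036, edgeR), and with library totals alone, a scaling added after the data were seen, it was 0.13 (adjusted p = 0.11, edgeR). The combination against abemaciclib there was at 0.0089 for AQP3. It was 0.099 with library totals alone and turned to −0.014 with no filter on low counts. Without single libraries it ranged from −0.021 to 0.030, and it was never past the threshold. Replicate numbers did not pair the libraries: same-numbered libraries deviated from their group means with correlations in MDA-MB-231 from −0.0923 to 0.0446, and in MDA-MB-453 from −0.0647 to 0.0435. The replicate block gave 4.24 for AQP3 and 3.06 for CD22 between combination and fulvestrant in MDA-MB-231, and changed no call of either gene. Over all 24 libraries instead of 12, 0 of the 5 genes most like AQP3 and 1 of the 5 most like CD22 were again among the top 5. The number of genes called between fulvestrant and DMSO in MDA-MB-453 was 156, with 259 by DESeq2, 269 with no filter and 5 to 786 without single libraries. For the combination against abemaciclib it was 273 (83 to 518 without single libraries), and for the interaction 421 (191 to 873).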
